A study of Homo sapiens with 16 samples.

Results

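The 44 human collagen genes were described here, out of 60671 genes in a count table from HEK293 cells, an established line of embryonic kidney origin. They were chosen by name alone, as every gene whose whole symbol is COL, digits, A and digits, and all 44 were found in the table by Ensembl identifier. The series held 16 RNA-seq libraries in 8 groups of 2. Parental cells were the only untransfected group. The other 7 groups received 5 µg of pcDNA3.0 plasmid with a lipid transfection reagent in 60 mm plates and were collected after 48 h. The plasmid was empty (empty vector) or carried 1 of 6 cloned transcripts of LINC01016, a long non-coding RNA gene, and the isoform groups are T1 and T2, CU1 and CU2, and CU1ENC and CU1ENU. Plasmid, lipid reagent and handling were present or absent together, so their effects cannot be told apart.

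Collagens are secreted or membrane-bound proteins built from chains that wind around each other into a rope-like helix. Fibrillar collagens form the cables of skin, bone and cartilage, and FACIT collagens (fibril-associated, with interrupted helices) sit on the surface of those cables. Type IV collagens form the sheet-like mesh of basement membranes, which in the kidney surround the tubules and make up the glomerular filter. Type VI collagens form beaded filaments, type VII forms the anchoring fibrils of skin, transmembrane collagens stay in the cell membrane, and multiplexins carry sugar chains and line basement membranes. A working helix needs the right set of chains, so the levels of partner chains were compared as well.

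Library totals ran from 15040770 to 17255935 counts. LINC01016 had 0 counts in both parental libraries, 0 to 1 in the empty vector libraries and 40405 to 192244 in the 12 isoform libraries. Levels are given as CPM (library-scaled counts, with TMM factors), which compare 1 gene or 1 sum across libraries, and levels of different genes are compared as CPM per kilobase of annotated exon. All 9 markers listed for HEK293 cells reached 1 CPM or more in at least 1 group mean. Their summed level was 2332 to 2615 CPM in parental and 2636 to 3243 CPM in transfected libraries. In the latter VIM alone had 1211 to 1500 CPM, and PAX2 had 2.01 to 8.18 CPM. Over the mean of the 7 transfected groups against parental, KRT8, KRT18 and INA rose and NEFL fell (adjusted p under 0.05, edgeR). Of all genes tested 15.4% rose and 14.3% fell. Same-numbered libraries shared their deviations from the group means (28 of 28 pairs of groups, r of 0.162 or more), and a block fit on that number is given where it changes a call. The labels do not call the replicates separate cultures, and a p-value here covers the spread among libraries alone, which may be technical.

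HEK293 cells expressed a broad set of collagens, with the type IV chain COL4A2 at the highest level per kb. Of the 44 genes, 33 reached 1 CPM in at least 1 group mean, 9 stayed low (0.1 to 1 CPM in their highest group) and 2 stayed under 0.1 CPM in every group. The FACIT genes COL16A1 and COL20A1, counted among the 33, had parental means of 0.896 and 0.810 CPM and reached 1 CPM only in transfected groups. All 6 basement membrane genes were expressed, as were 9 of 11 fibrillar, 9 of 10 FACIT, 2 of 5 beaded filament, 3 of 4 transmembrane, 1 of 2 multiplexin and 1 of 3 network genes, the anchoring fibril gene COL7A1 and 1 of 2 unclassified genes. Averaged over all 16 libraries, COL4A2 had 19.5 CPM per kb, ahead of the fibril-surface collagen COL12A1 with 15.2 and of COL4A1 with 14.1. Next were COL18A1, the precursor of endostatin, with 13.6 CPM per kb, and the type VI chain COL6A1 with 13.5. COL5A1, a type V chain that takes part in fibril assembly, had 12.7 CPM per kb, COL6A2 had 8.70 and the cartilage collagen COL2A1 had 7.55. The order differed in the parental libraries alone. COL4A2 had 21.3 ± 2.70 CPM per kb (SD, n = 2), COL6A1 19.6 ± 1.87, COL2A1 18.9 ± 9.26, COL18A1 15.6 ± 0.858 and COL4A1 14.1 ± 1.72. Next came COL6A2 (12.8 ± 2.69), COL5A1 (12.7 ± 4.30) and COL4A5 (9.58 ± 1.55), ahead of COL12A1 with 9.17 ± 2.39. Among the first 5 of these, each differed from the next by less than the larger SD of the pair. These levels rest on the union of annotated exons, which differs from the transcripts a cell makes.

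By the limit of 0.1 CPM in every group mean, the silent genes were COL10A1, which marks hypertrophic cartilage, and COL11A1, a cartilage chain that assembles with COL2A1. COL10A1 had 14 counts over all 16 libraries and 0 in 8 of them, and COL11A1 had 7 counts and was at 0 in 11 libraries, both parental libraries included. The 0.1 CPM limit lies below the level that a count of 0 allows: 3 counts equal 0.174 to 0.199 CPM in these libraries, so lower levels were not detectable at this depth in 1 library. COL1A2, COL9A1, COL6A5, COL6A6, COL28A1 and COL8A2 were also too low to test, with 12 to 85 counts in all. Of these 8 untested genes, every one but COL8A2 was at 0 in at least 1 library. The limit did not set the silent genes apart from all low ones. COL6A5 (12 counts) and COL6A6 (13 counts) had fewer counts than COL10A1 but reached 0.124 and 0.177 CPM in their highest group. Averaged per kb over the 16 libraries, COL6A5 (0.00480), COL6A6 (0.00510) and COL1A2 (0.00707) lay below COL10A1 (0.0143). For COL1A2, COL9A1 and COL11A1, and for COL6A5 and COL6A6, a partner chain was present. COL1A2 is the partner of COL1A1 in type I collagen, and COL6A5 and COL6A6 belong to type VI collagen with COL6A1, at 56.6 to 111 CPM, and COL6A2, at 33.8 to 78.4 CPM. Per kb, COL1A2 lay between 0 and 0.00718 of COL1A1, COL9A1 between 0 and 0.0411 of COL9A3, and COL11A1 between 0 and 0.0280 of COL11A2. COL6A3, the large chain of type VI collagen, passed the low-count filter with 137 counts but lay between 0.000538 and 0.00366 of COL6A1 per kb.

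**Figure D1:**
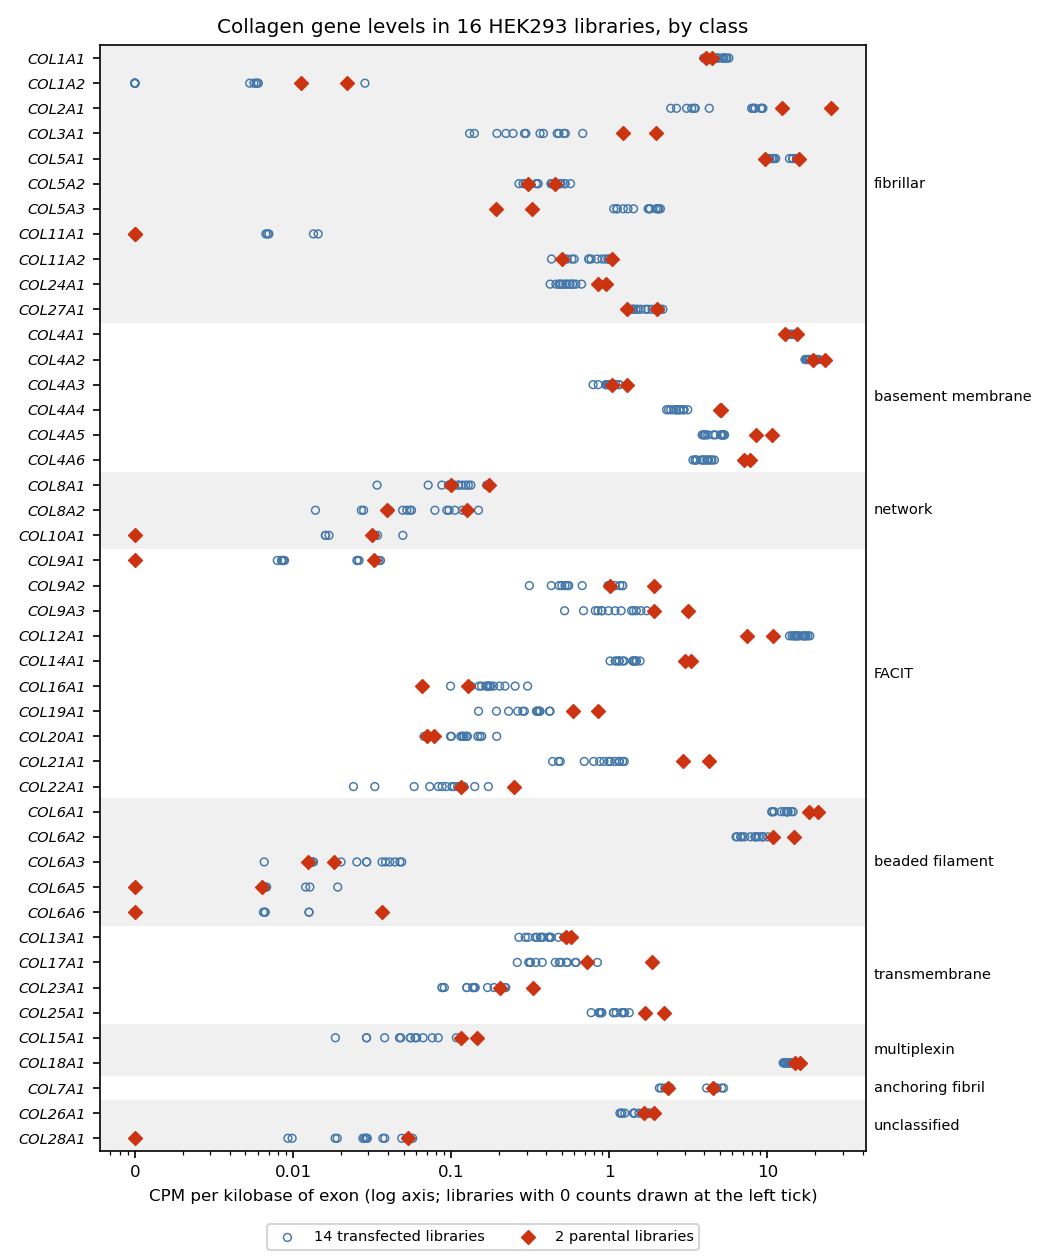
Level of each of the 44 collagen genes in CPM per kilobase of exon (log axis) by class, with open circles for the 14 transfected libraries and red diamonds for the 2 parental libraries. Averaged over the 16 libraries, COL4A2, COL12A1, COL4A1, COL18A1, COL6A1 and COL5A1 lie highest, at 12.7 to 19.5. COL11A1, COL6A5, COL6A6, COL1A2 and COL10A1 lie lowest, at 0.00303 to 0.0143, and libraries with 0 counts are drawn at the left edge.

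Summed over all members, collagen transcripts made up 1808 and 1801 CPM in the parental libraries and 1437 to 1563 CPM (median 1507) in the transfected ones. The groups did not overlap. By class, basement membrane genes summed to 825 and 898 CPM in parental and 664 to 765 CPM in transfected libraries, fibrillar genes to 375 and 342 CPM against 257 to 295 CPM, and beaded filament genes to 190 and 155 CPM against 91.6 to 128 CPM. Transmembrane genes summed to 39.1 and 25.6 CPM in parental and 12.8 to 22.9 CPM in transfected libraries. FACIT genes had higher sums in transfected libraries, at 210 to 263 CPM against 193 and 209 CPM. Of these sums COL12A1 alone gave 172 to 232 CPM in transfected and 93.4 and 136 CPM in parental libraries. Among the 9 tested FACIT genes 6 had negative and 3 positive log2 differences over the 7 transfected groups. These are bulk samples, so fewer cells of a type and less RNA per cell cannot be told apart.

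Collagens differed between transfected and parental cells mostly downward. Against parental cells, 3 of the 36 tested genes rose and 8 fell with the empty vector (adjusted p under 0.05, edgeR), where 9.41% of all genes tested rose and 6.60% fell. Over the mean of the 7 transfected groups 17 of 36 passed, 2 up and 15 down, where 29.7% of all genes tested passed, 15.4% up and 14.3% down. One of the 15, COL15A1, was tested through its parental level alone, and 16 of the other 35 passed, 2 up and 14 down. The median log2 fold change of the tested collagens was -0.64 for empty vector and -0.58 for all transfected groups, beside 0.01 and -0.00 for all genes tested. The 2 comparisons share the parental libraries and the empty vector libraries, and 10 genes passed in both. Libraries did not overlap for 18 of 36 tested collagens, 16 of them lower and 2 higher in transfected cells. Of all genes tested 31.8% did not overlap, 14.9% lower and 16.8% higher in transfected cells. COL15A1 is among the 16. Within replicate number 1 and within replicate number 2 taken alone, each of the 11 and each of the 17 passing genes differed in its called direction. The calls were made on these same libraries, and 3092 of all 3092 and 5743 of all 5744 passing genes did so too.

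The counts of passing genes moved with single libraries. For empty vector 5 collagens passed without parental replicate 1, 11 without parental replicate 2, 7 without empty vector replicate 1 and 6 without empty vector replicate 2, beside 1436, 1535, 1551 and 1365 of all genes in place of 3092. For all transfected groups 10 collagens passed without parental replicate 1 and 14 without parental replicate 2, beside 2498 and 3215 of all genes in place of 5744. With the replicate number as a block, 21 passed for empty vector (4 up, 17 down) and 24 for all transfected groups (4 up, 20 down), where 34.3% and 45.7% of all genes tested passed. All 11 and all 17 genes passed in the same direction with the block. Below, log2 fold changes are transfected minus parental over the 7 groups with their SE unless the empty vector is named.

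**Figure D2:**
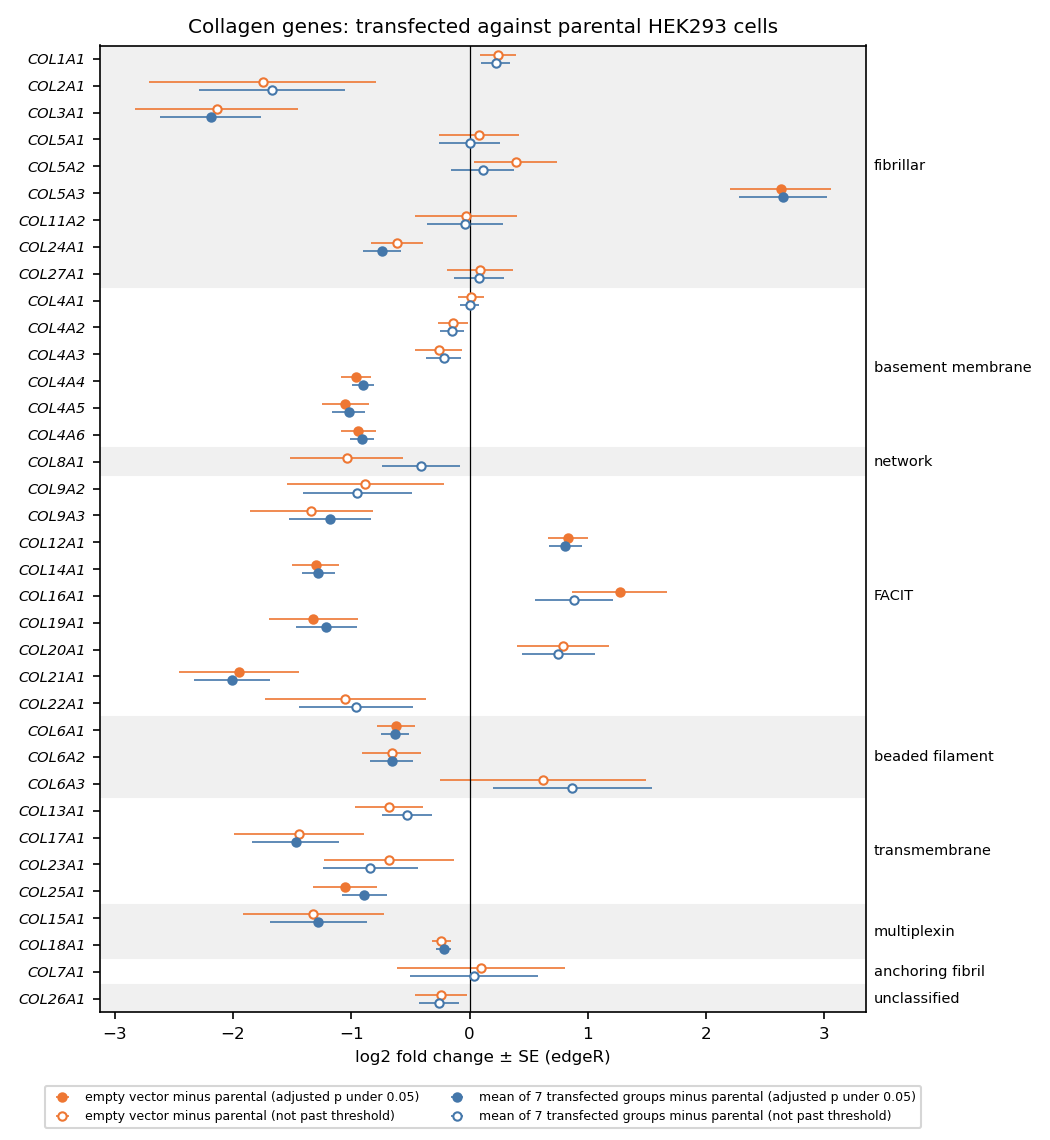
Log2 fold change against parental cells with its SE for the 36 tested collagen genes, for the empty vector (orange) and the mean of the 7 transfected groups (blue), where filled points passed an adjusted p of 0.05. Most filled points lie left of 0 and COL5A3 lies farthest right, at 2.63 and 2.65.

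Type IV collagen genes lie in head-to-head pairs that share the DNA between their starts, and the chains of the pairs differed in how they moved. COL4A1 and COL4A2 encode the chains found in nearly all basement membranes, while COL4A3, COL4A4 and COL4A5 form the network of the mature glomerular filter, and COL4A6 joins COL4A5 elsewhere. The DNA between or next to the paired starts is shown because it is what each pair shares, with matches to a GC box (GGGCGG) and a CCAAT box (CCAAT) in capitals, read on either strand. The sequences are from RefSeq (GRCh38.p14, plus strand) and span chr13:110307158-110307283, chr2:227164454-227164623 and chrX:108439588-108439837.
COL4A1-COL4A2: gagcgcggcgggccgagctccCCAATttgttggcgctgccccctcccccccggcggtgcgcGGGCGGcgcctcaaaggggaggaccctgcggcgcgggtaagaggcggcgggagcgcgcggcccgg
COL4A3-COL4A4: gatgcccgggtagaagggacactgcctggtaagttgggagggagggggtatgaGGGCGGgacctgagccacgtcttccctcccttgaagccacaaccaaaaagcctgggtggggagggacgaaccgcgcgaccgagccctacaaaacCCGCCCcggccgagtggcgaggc
COL4A5-COL4A6: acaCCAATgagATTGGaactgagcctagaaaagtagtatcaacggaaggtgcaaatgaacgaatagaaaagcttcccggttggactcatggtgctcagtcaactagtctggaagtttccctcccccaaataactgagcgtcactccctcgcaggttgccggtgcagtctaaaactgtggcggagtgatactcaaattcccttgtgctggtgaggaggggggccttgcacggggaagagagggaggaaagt
The starts are 126 bases apart for COL4A1 and COL4A2 by RefSeq. They are 170 bases apart for COL4A3 and COL4A4 and 340 for COL4A5 and COL4A6, of which the 250 bases before COL4A5 are shown. The COL4A1-COL4A2 stretch holds 1 CCAAT box and 1 GC box, the COL4A3-COL4A4 stretch 2 GC boxes and the COL4A5-COL4A6 stretch 2 CCAAT boxes. None of the 3 holds a TATA box (TATAAA) or an AP-1-like motif (TGANTCA). In windows of the same length before the starts of 35116 RefSeq promoters, a CCAAT box occurred in 21.1%, 25.4% and 32.0% and a GC box in 34.6%, 38.3% and 42.6%.

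Of the first pair, COL4A1 (ENSG00000187498) had 189 and 224 CPM in the parental libraries and 188 to 225 CPM (median 206) in the transfected ones. The groups overlapped fully, and the log2 difference was -0.00 ± 0.08 (95% interval -0.16 to 0.16). COL4A2 (ENSG00000134871) had 374 and 448 CPM in parental and 334 to 408 CPM (median 367) in transfected libraries. These groups overlapped too, with a difference of -0.15 ± 0.10 (adjusted p = 0.267), which passed only with the replicate block (adjusted p = 0.00286). The per kb ratio of COL4A1 to COL4A2 was 0.663 and 0.659 in parental and 0.683 to 0.774 in transfected libraries.

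Both genes of the X-linked pair fell. COL4A5 (ENSG00000188153) had 127 and 101 CPM in parental and 45.9 to 63.6 CPM (median 57.9) in transfected libraries, a change of -1.02 ± 0.14 (adjusted p = 0.000246). COL4A6 (ENSG00000197565) had 72.2 and 66.1 CPM in parental and 31.4 to 42.9 CPM (median 36.8) in transfected libraries, a change of -0.91 ± 0.10 (adjusted p = 3.60e-05). Every transfected library lay below both parental libraries for both genes, and their per kb ratio stayed between 1.04 and 1.37 over all 16 libraries.

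In the COL4A3 and COL4A4 pair only COL4A4 passed. COL4A4 (ENSG00000081052) had 51.4 and 50.3 CPM in parental and 23.1 to 31.5 CPM (median 27.3) in transfected libraries, and fell by 0.90 ± 0.09 on the log2 scale (adjusted p = 1.55e-05), without overlap. COL4A3 (ENSG00000169031) had 11.7 and 9.44 CPM in parental and 7.16 to 10.5 CPM (median 9.02) in transfected libraries, which overlapped, with a difference of -0.22 ± 0.15 (adjusted p = 0.291, and 0.174 with the block). Of the 9065 exonic bases of COL4A3, 838 lie opposite exons of another gene and 0 are shared on its own strand. Reads were counted by strand. The per kb ratio of COL4A3 to COL4A4 was 0.252 and 0.208 in parental and 0.291 to 0.451 in transfected libraries, without overlap. These ratios are given as a description, with no test. With the empty vector COL4A4 (-0.96 ± 0.13, adjusted p = 0.000386), COL4A6 (-0.94 ± 0.15, adjusted p = 0.00103) and COL4A5 (-1.05 ± 0.20, adjusted p = 0.00479) also passed. The COL4A5 call there was lost without empty vector replicate 2 (adjusted p = 0.0555). All 3 calls over the 7 groups were kept without each library in turn.

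**Figure D3:**
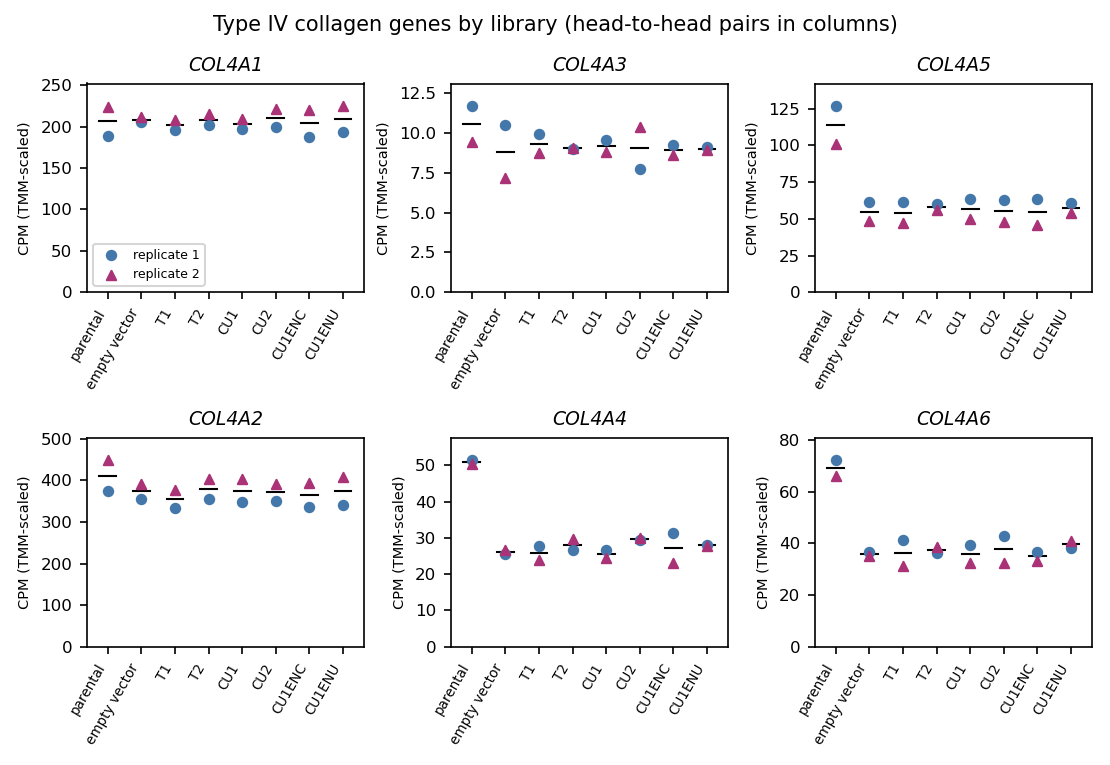
CPM of the 6 type IV collagen genes in each library by group (circles for replicate 1, triangles for replicate 2, bars for the group mean), with each head-to-head pair in a column. COL4A4, COL4A5 and COL4A6 lie lower in all 7 transfected groups than in parental cells, while COL4A1 lies at 188 to 225 CPM throughout.

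Among the fibrillar collagens 1 gene rose and 2 fell of 9 tested, where 15.4% of all genes tested rose and 14.3% fell. COL5A3, a minor chain of type V collagen (ENSG00000080573), had 1.30 and 2.19 CPM in the parental libraries and 7.24 to 14.3 CPM (median 12.1) in the transfected ones. No transfected library overlapped the parental ones, and the gene rose 6.29-fold (log2 2.65 ± 0.37, adjusted p = 0.000254). With the empty vector the rise was 2.63 ± 0.43 (adjusted p = 0.00180). The size differed between replicate numbers: transfected minus parental was 3.24 in replicate 1 and 1.96 in replicate 2. COL5A1, its main partner chain, did not pass, with 108 and 176 CPM in parental and 111 to 173 CPM in transfected libraries (0.00 ± 0.26, 95% interval -0.50 to 0.51). The per kb ratio of COL5A3 to COL5A1 was 0.0198 and 0.0205 in parental and 0.0722 to 0.197 in transfected libraries. COL5A2, the other partner, differed by 0.11 ± 0.27 (95% interval -0.42 to 0.64).

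The promoter of COL5A3 is shown beside that of COL12A1, the other gene that rose in both comparisons. Each line gives the 250 bases before the RefSeq start (GRCh38.p14, minus strand of chr19:10010505-10010754 and chr6:75206054-75206303), with GC and CCAAT boxes in capitals.
COL5A3: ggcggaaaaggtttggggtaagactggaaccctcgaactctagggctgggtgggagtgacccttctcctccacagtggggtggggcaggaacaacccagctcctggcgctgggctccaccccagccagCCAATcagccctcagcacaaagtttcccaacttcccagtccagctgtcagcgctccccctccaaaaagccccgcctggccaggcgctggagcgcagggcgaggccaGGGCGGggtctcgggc
COL12A1: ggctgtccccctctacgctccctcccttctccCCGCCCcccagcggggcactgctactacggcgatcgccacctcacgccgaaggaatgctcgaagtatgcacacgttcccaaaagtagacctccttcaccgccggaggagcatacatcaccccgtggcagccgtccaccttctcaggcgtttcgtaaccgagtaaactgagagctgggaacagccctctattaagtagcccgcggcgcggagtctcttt
The COL5A3 stretch holds 1 CCAAT box and 1 GC box and the COL12A1 stretch holds 1 GC box, and neither holds a TATA box or an AP-1-like motif. Of all 35116 promoters, 32.0% held a CCAAT box, 42.6% a GC box, 10.7% a TATA box and 6.57% an AP-1-like motif in a window of that length.

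COL3A1, a fibrillar collagen of skin and vessels (ENSG00000168542), had 13.4 and 8.28 CPM in parental and 0.884 to 4.59 CPM (median 2.24) in transfected libraries. It fell 4.57-fold (-2.19 ± 0.43, adjusted p = 0.00305), without overlap. Without parental replicate 1 this call was lost (adjusted p = 0.0761). COL24A1, a minor fibrillar collagen, had 8.10 and 9.07 CPM in parental and 4.04 to 6.40 CPM in transfected libraries and fell by 0.74 ± 0.16 (adjusted p = 0.00315, but 0.0601 without parental replicate 2). COL2A1, the main collagen of cartilage (ENSG00000139219), had 169 and 82.1 CPM in parental and 16.3 to 62.4 CPM (median 40.8) in transfected libraries. Its groups did not overlap, and the difference of -1.67 ± 0.62 did not pass (adjusted p = 0.0771). With the replicate block it was -1.74 ± 0.15 (adjusted p = 3.22e-05), and transfected minus parental was -1.56 in replicate 1 and -1.94 in replicate 2. COL1A1, the main chain of bone and skin collagen, had 36.8 and 40.4 CPM in parental and 35.7 to 51.4 CPM in transfected libraries (0.22 ± 0.12, adjusted p = 0.190, and 0.0166 with the block). COL11A2 and COL27A1 differed by -0.04 ± 0.32 and 0.08 ± 0.21, and their groups overlapped.

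Markers of fibroblasts, which make much of the fibrillar collagen of tissues, fell in part. Of 8 fibroblast markers 3 of 6 tested fell (LUM, POSTN, PDGFRA) and 0 rose by edgeR, beside 14.3% and 15.4% of all tested genes. The other 3 did not pass: TWIST2 differed by 0.09 and PDGFRB by -0.27, and FAP had 0 CPM in both parental and 0 to 0.799 CPM in transfected libraries. Over the whole list the summed level was 18.9 to 23.8 CPM in parental and 12.2 to 17.0 CPM in transfected libraries. The defining markers DCN and THY1 had 21 and 14 counts over all 16 libraries. Their part in the collagen differences was not tested. Endothelial markers summed to 1.14 to 2.47 CPM in transfected and 1.34 to 1.77 CPM in parental libraries. Leukocyte markers summed to 1.97 to 4.67 CPM and 1.24 to 1.52 CPM, where CD14, the 1 tested gene of 5, rose (1.23, adjusted p = 0.00431 by edgeR) and PTPRC had 4 counts in all. Kidney tubule markers summed to 8.99 to 15.6 CPM and 15.8 to 18.4 CPM. Of the 3 tested of 7, LRP2 fell (-1.04), AQP1 (0.74) and CUBN (1.02) rose, and UMOD had 0 counts. For these calls and that of CD14 too, 15.4% of all genes tested rose and 14.3% fell.

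**Figure D4:**
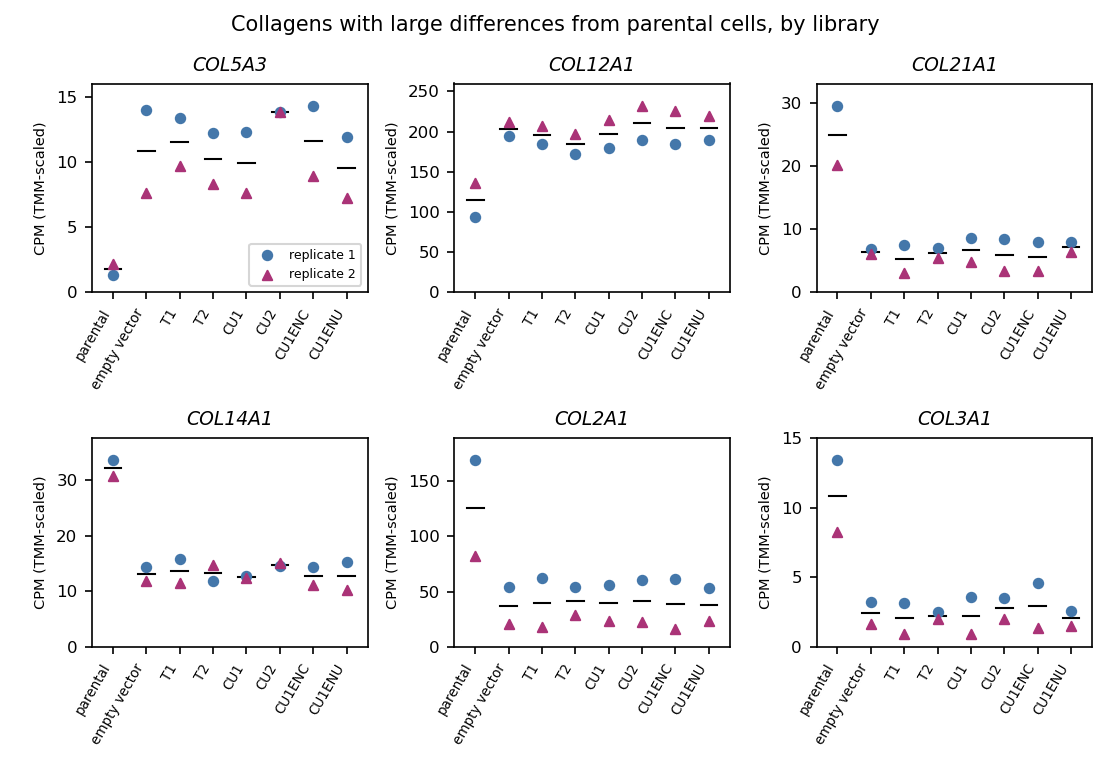
CPM of 6 collagen genes in each library by group (circles for replicate 1, triangles for replicate 2, bars for the group mean). COL5A3 and COL12A1 lie higher and COL21A1, COL14A1, COL2A1 and COL3A1 lower in all 14 transfected libraries than in the 2 parental ones, and parental COL2A1 differs between its libraries (169 and 82.1 CPM).

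FACIT collagens moved in both directions, with 1 up and 4 down of 9 tested, beside 15.4% up and 14.3% down of all genes tested. COL12A1 (ENSG00000111799), found on fibrils of tendon and ligament, had 93.4 and 136 CPM in parental and 172 to 232 CPM (median 196) in transfected libraries. It rose 1.75-fold (0.81 ± 0.14, adjusted p = 0.000797), without overlap, and with the empty vector it rose by 0.83 ± 0.17 (adjusted p = 0.00550, but 0.0660 without parental replicate 1). COL14A1 (ENSG00000187955), its close relative, went the other way: it had 33.6 and 30.8 CPM in parental and 10.3 to 15.9 CPM (median 13.5) in transfected libraries. It fell by 1.28 ± 0.14 (adjusted p = 2.52e-05), and by 1.30 ± 0.20 with the empty vector (adjusted p = 0.00104), and no omitted library ended either call.

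COL21A1 (ENSG00000124749), a short FACIT collagen, had 29.6 and 20.2 CPM in parental and 3.03 to 8.60 CPM (median 6.63) in transfected libraries. It fell 4.03-fold (-2.01 ± 0.32, adjusted p = 0.000868), without overlap. COL19A1, a FACIT collagen of basement membrane zones, had 9.40 and 6.45 CPM in parental and 1.64 to 4.65 CPM in transfected libraries and fell by 1.21 ± 0.26 (adjusted p = 0.00287). Against parental cells alone, empty vector calls were also made for COL21A1 (adjusted p = 0.0244) and COL19A1 (adjusted p = 0.0286), but neither passed without either empty vector library or without parental replicate 1, with adjusted p of up to 0.154 and 0.185. Over the 7 groups the COL19A1 call was lost without parental replicate 1 (adjusted p = 0.107).

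Type IX chains decorate cartilage fibrils made of COL2A1, and of the tested chains COL9A3 fell while COL9A2 passed only with the block. COL9A3 had 15.1 and 9.25 CPM in parental and 2.53 to 8.35 CPM (median 5.03) in transfected libraries and fell by 1.18 ± 0.35 (adjusted p = 0.0252, but 0.335 without parental replicate 1). COL9A2 had 8.10 and 4.26 CPM in parental and 1.32 to 5.12 CPM in transfected libraries, which overlapped, with a difference of -0.95 ± 0.46 (adjusted p = 0.146, and 4.11e-05 with the block). COL16A1, a FACIT collagen of small fibrils, had 1.18 and 0.609 CPM in parental, 2.82 and 1.54 CPM in the empty vector libraries and 0.918 to 2.82 CPM over all transfected libraries. It rose in the empty vector group (1.27 ± 0.40, adjusted p = 0.0441), a call lost without empty vector replicate 1 (adjusted p = 0.329), parental replicate 1 (0.0516) or parental replicate 2 (0.264). Over the 7 groups the difference was 0.88 ± 0.33 (adjusted p = 0.0563, and 0.0240 with the block). COL20A1 differed by 0.75 ± 0.31 (adjusted p = 0.0865), and COL22A1, found at the junction of muscle and tendon, by -0.96 ± 0.48 (adjusted p = 0.146, and 0.0319 with the block).

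Both abundant type VI chains fell. COL6A1 (ENSG00000142156) had 111 and 97.0 CPM in parental and 56.6 to 77.2 CPM (median 70.4) in transfected libraries, a change of -0.63 ± 0.12 (adjusted p = 0.00129). COL6A2 (ENSG00000142173) had 78.4 and 58.1 CPM in parental and 33.8 to 53.6 CPM (median 44.6) in transfected libraries, a change of -0.66 ± 0.18 (adjusted p = 0.0172, but 0.264 without parental replicate 1). Neither gene overlapped between the groups, and their per kb ratio lay between 1.34 and 1.78 in all 16 libraries. With the empty vector COL6A1 fell by 0.62 ± 0.16 (adjusted p = 0.0201), which was lost without empty vector replicate 1 (adjusted p = 0.0669), empty vector replicate 2 (0.134) or parental replicate 1 (0.120). COL6A3 differed by 0.87 ± 0.67 (adjusted p = 0.361) at 0.355 and 0.243 CPM in parental and 0.128 to 0.948 CPM in transfected libraries.

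Among the transmembrane collagens 2 of 4 tested fell, where 14.3% of all genes tested fell. COL25A1, which takes part in motor nerve growth into muscle, had 19.3 and 14.6 CPM in parental and 6.72 to 11.7 CPM in transfected libraries and fell by 0.89 ± 0.19 (adjusted p = 0.00297, but 0.101 without parental replicate 1). With the empty vector it fell by 1.05 ± 0.27 (adjusted p = 0.0180), which was lost without empty vector replicate 2 (adjusted p = 0.161) or parental replicate 1 (0.132). COL17A1, a component of hemidesmosomes, had 12.9 and 5.05 CPM in parental and 1.83 to 5.88 CPM in transfected libraries, with overlap, and fell by 1.47 ± 0.37 (adjusted p = 0.00959). That call rested on parental replicate 1, without which the adjusted p was 0.426. COL13A1, a collagen of the neuromuscular junction, had 5.68 and 5.24 CPM in parental and 2.65 to 5.12 CPM in transfected libraries (-0.53 ± 0.21, adjusted p = 0.0647, and 0.0208 with the block). COL23A1 differed by -0.84 ± 0.40 (adjusted p = 0.129).

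The abundant multiplexin COL18A1 and the low COL15A1 passed, but neither call held under every alternative. COL18A1 (ENSG00000182871) had 127 and 137 CPM in parental and 107 to 120 CPM (median 114) in transfected libraries, without overlap, a fall of 1.16-fold (-0.22 ± 0.06, adjusted p = 0.0155). The call was lost without parental replicate 2 (adjusted p = 0.184) and without the low-count filter (0.0638). Of its 8464 exonic bases 1563 lie opposite exons of another gene, but reads were counted by strand. On its own strand 0 bases are shared. COL15A1 had 0.769 and 0.974 CPM in parental and 0.123 to 0.718 CPM in transfected libraries, from 2 to 16 counts a library. Its fall of 1.28 ± 0.41 (adjusted p = 0.0303) did not pass without parental replicate 1 (0.112), parental replicate 2 (0.220), without the low-count filter (0.0530) or by DESeq2 (0.0927). COL15A1 did not pass the filter when only the transfected libraries were fitted, so it was tested here through its parental level. COL7A1, the anchoring fibril collagen, differed by 0.04 ± 0.54 (95% interval -1.03 to 1.10), COL8A1, a network collagen of vessel walls and cornea, by -0.41 ± 0.33 (adjusted p = 0.387), and COL26A1 by -0.26 ± 0.17 (adjusted p = 0.263).

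No collagen passed in any comparison of an isoform with empty vector, the comparison that asks whether a LINC01016 transcript changes collagen transcripts beyond the plasmid. With 2 libraries a group this does not show that levels were equal. Of 36 genes tested against each of the 6 isoforms (216 tests), edgeR called 0, DESeq2 called 0 and the block fit called 0, with a lowest adjusted p of 0.549. In each comparison 0.0104% of all genes tested passed, and 0.00518% in CU2. An unadjusted p under 0.05 was reached by 2 of the 216 tests, COL8A1 in CU1 and COL16A1 in T2. Of all genes tested, 1.09% reached it with T1 and 2.32% with T2, 1.63% with CU1 and 1.23% with CU2, and 0.916% with CU1ENC and 1.28% with CU1ENU. COL8A1 had 1.11 and 1.58 CPM in CU1 and 0.918 and 0.320 CPM in empty vector libraries, a difference of 1.10 ± 0.48. COL16A1 had 1.23 and 0.918 CPM in T2 and 2.82 and 1.54 CPM in empty vector libraries, and its difference in T2 was -1.01 ± 0.40. Over all 16 libraries COL8A1 was lowest in empty vector replicate 2 and COL16A1 was highest in empty vector replicate 1.

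Beside these, the genes of lowest p with T1 were COL16A1 (log2 difference -0.62 ± 0.38) and COL8A1 (0.79 ± 0.49), and with T2 COL5A2 (-0.51 ± 0.35). With CU1 it was COL5A2 (-0.62 ± 0.36), and with CU2 COL4A4 (0.18 ± 0.13) and COL24A1 (-0.31 ± 0.23). For CU1ENC they were COL8A1 (0.95 ± 0.49) and COL26A1 (-0.37 ± 0.23), and for CU1ENU COL15A1 (0.81 ± 0.63) and COL8A1 (0.58 ± 0.50). All of these had adjusted p of 1.00. The approximate 95% interval of the difference lay within 2-fold for 22 of the 36 genes with T1 and 19 with T2, 19 with CU1 and 20 with CU2, and 21 with CU1ENC and 24 with CU1ENU. For the other genes the interval reached a 2-fold change, which these libraries do not exclude.

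For the isoform groups averaged and set against empty vector, 0 collagens passed by edgeR and by DESeq2 and 0 had an unadjusted p under 0.05, where 0.0104% of all genes tested passed and 1.50% had such a p. The median log2 difference was -0.02, beside -0.00 for all genes tested, and 25 of 36 intervals lay within 2-fold. The 5 passing genes of largest fold change against parental cells, leaving out COL15A1, had differences here of 0.03 ± 0.28 for COL5A3, -0.06 ± 0.56 for COL3A1, -0.07 ± 0.40 for COL21A1, -0.04 ± 0.44 for COL17A1 and 0.02 ± 0.16 for COL14A1. The F-test over the 6 isoforms called 0 collagens by edgeR and DESeq2, with 0 at an unadjusted p under 0.05, where 0% of all genes tested passed and 0.507% had such a p.

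Many collagens differed between the replicate numbers. Over the 14 transfected libraries, with group terms in the edgeR fit, 23 of 35 tested collagens differed between replicate 2 and replicate 1, 5 higher and 18 lower in replicate 2, where 35.1% of all genes tested differed, 17.5% up and 17.6% down. The median log2 difference was -0.24, beside -0.02 for all genes tested. What the number stands for is not given in the labels. COL7A1 (ENSG00000114270) had 45.7 to 58.5 CPM in the replicate 1 libraries and 23.0 to 26.8 CPM in the replicate 2 libraries, a difference of -1.06 ± 0.05 (adjusted p = 8.60e-16). Its parental libraries differed in the same way, with 50.0 and 26.1 CPM. COL5A1 went the other way, with 111 to 126 CPM in replicate 1 and 154 to 173 CPM in replicate 2 (0.48 ± 0.03, adjusted p = 7.77e-13).

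Among the 18 collagens lower in replicate 2 were COL2A1, COL9A2, COL9A3 and COL11A2, which encode chains of cartilage fibrils. COL2A1 had 53.0 to 62.4 CPM in replicate 1 and 16.3 to 28.6 CPM in replicate 2 (-1.42 ± 0.12, adjusted p = 0.000115), COL9A2 had 2.84 to 5.12 CPM and 1.32 to 2.34 CPM (-1.13 ± 0.16), and COL9A3 differed by -0.81 ± 0.14. COL11A2 differed by -0.63 ± 0.12, with overlap (4.99 to 6.92 CPM in replicate 1 and 2.91 to 5.18 CPM in replicate 2). COL9A1, COL10A1 and COL11A1 were too low to test. Also lower in replicate 2 without overlap were COL3A1 (-1.18 ± 0.19), COL21A1 (-0.77 ± 0.14), COL27A1 (-0.41 ± 0.06) and COL4A5 (-0.32 ± 0.04). Higher without overlap were COL12A1 (0.21 ± 0.03), COL4A2 (0.19 ± 0.03) and COL4A1 (0.12 ± 0.03). In all, 12 of 36 collagens did not overlap between the numbers, where 13.1% of all genes tested did not.

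The remaining calls between replicate numbers were COL1A1 (0.20 ± 0.05) higher, and COL5A3 (-0.56 ± 0.09), COL6A1 (-0.24 ± 0.05), COL6A2 (-0.36 ± 0.06), COL6A3 (-1.18 ± 0.34), COL17A1 (-0.75 ± 0.16), COL25A1 (-0.44 ± 0.09), COL19A1 (-0.47 ± 0.15), COL4A6 (-0.16 ± 0.06) and COL22A1 (-0.89 ± 0.31) lower in replicate 2. The last 3 lost their calls when certain single libraries were left out, with adjusted p of up to 0.0925, 0.145 and 0.150, and the other 20 of the 23 were kept. The parental libraries, which this fit did not use, differed in the same direction for 22 of the 23 genes, the exception being COL5A3. The share over all passing genes was not computed here, so this count cannot be read as particular to collagens. COL4A4 differed by -0.08 ± 0.06, COL14A1 by -0.20 ± 0.09 and COL18A1 by -0.02 ± 0.03 and did not pass.

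**Figure D5:**
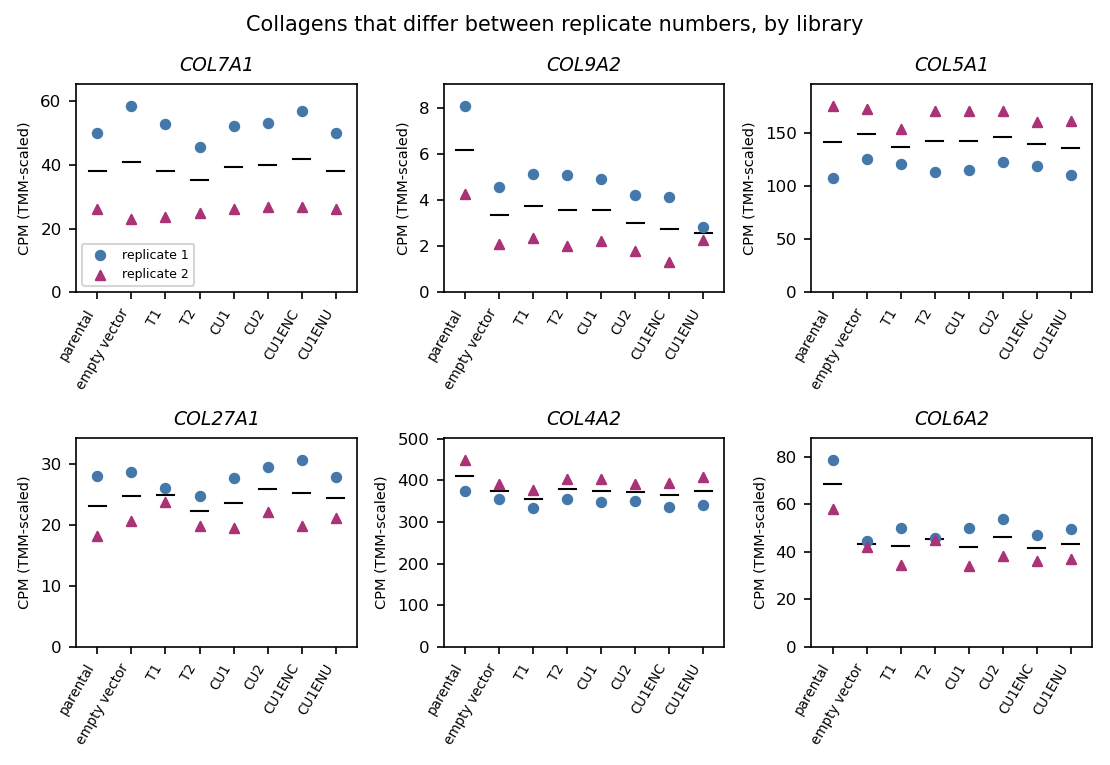
CPM of 6 collagen genes in each library by group (circles for replicate 1, triangles for replicate 2, bars for the group mean). Replicate 1 lies above replicate 2 in every group for COL7A1, COL9A2 and COL27A1 and below it for COL5A1 and COL4A2, with COL7A1 at 45.7 to 58.5 against 23.0 to 26.8 CPM in transfected libraries.

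Genes that make, export, process, bind and degrade collagen were described next, over the mean of the 7 transfected groups, where 29.7% of all genes tested passed. Of 20 tested genes of chain folding and hydroxylation 3 rose and 4 fell (median log2 change 0.04). CRTAP, a partner of prolyl 3-hydroxylase, had 223 and 209 CPM in parental and 136 to 161 CPM in transfected libraries (-0.55 ± 0.06, adjusted p = 2.52e-05), and P3H4 fell too (-0.41 ± 0.07). The galactosyltransferase COLGALT2 (-0.73 ± 0.17) and the lysyl hydroxylase PLOD2 (-0.65 ± 0.21) fell, while COLGALT1 (0.28 ± 0.08), P3H2 (0.38 ± 0.12) and PPIB (0.28 ± 0.10) rose. Of 9 genes of collagen export 4 rose and 1 fell (median 0.19): the coat proteins SEC24D (0.43 ± 0.09) and SEC31A (0.26 ± 0.06) and the cargo receptors MIA2 (0.26 ± 0.08) and MIA3 (0.19 ± 0.06) rose, and KLHL12 fell (-0.25 ± 0.08).

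Of 13 tested genes of processing and crosslinking 3 fell and none rose (median -0.30). They were the procollagen proteases ADAMTS2 (-0.66 ± 0.11, adjusted p = 0.000611) and ADAMTS3 (-0.54 ± 0.15) and PXDN (-0.74 ± 0.16), the peroxidase that crosslinks type IV collagen. PXDN had 77.2 and 68.5 CPM in parental and 33.8 to 52.5 CPM in transfected libraries, without overlap. Of 8 tested receptors 1 rose and 4 fell (median -0.30). DDR2, a receptor for fibrillar collagen, had 1.42 and 1.34 CPM in parental and 3.67 to 5.81 CPM in transfected libraries (1.70 ± 0.24, adjusted p = 0.000154), while its relative DDR1 fell (-0.41 ± 0.10), as did the integrins ITGA1 (-0.41 ± 0.09), ITGA2 (-0.57 ± 0.14) and ITGA11 (-1.34 ± 0.41).

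Other basement membrane components fell or did not pass, with 0 up and 5 down of 15 tested (median -0.27). NID2, which links laminin to type IV collagen, had 33.5 and 29.0 CPM in parental and 15.7 to 21.8 CPM in transfected libraries (-0.78 ± 0.11, adjusted p = 0.000198). The laminin chains LAMA4 (-0.66 ± 0.09), LAMB2 (-0.58 ± 0.16), LAMC1 (-0.31 ± 0.06) and LAMA1 (-0.36 ± 0.12) fell, and LAMA1 is named only to complete the count. Of 11 tested genes of collagen breakdown 2 rose and 4 fell (median -0.31). The gelatinase MMP2 (-0.52 ± 0.06, adjusted p = 3.80e-05), the membrane proteases MMP15 (-0.65 ± 0.09) and MMP16 (-0.44 ± 0.13) and the inhibitor TIMP2 (-0.31 ± 0.06) fell, and the collagenase MMP13 (1.79 ± 0.53) and the inhibitor TIMP3 (0.30 ± 0.06) rose. LAMA4, LAMC1, NID2, MMP2, MMP15, TIMP2, P3H4, CRTAP, ADAMTS2 and DDR2 passed without each library in turn. The other 21 of the 31 named genes lost their calls without a parental library, 20 without parental replicate 1 and 13 without parental replicate 2, with adjusted p from 0.051 to 0.595. More partner genes passed with the replicate block, where 45.7% of all genes tested passed: 11 of 20 for folding (6 up, 5 down), 6 of 9 for export (5 up, 1 down), 10 of 13 for processing (3 up, 7 down), 7 of 8 receptors (2 up, 5 down), 8 of 15 basement membrane genes (0 up, 8 down) and 8 of 11 for breakdown (2 up, 6 down). With the empty vector 9.41% of all genes tested rose and 6.60% fell. With the block, whose counts follow in brackets, 34.3% of all genes tested passed in either direction. For empty vector 2 of 20 folding genes passed (10: 4 up, 6 down), 2 of 9 for export (5: 4 up, 1 down) and 2 of 13 for processing (8: 2 up, 6 down). So did 2 of 8 receptors (6: 2 up, 4 down), 3 of 15 basement membrane genes (7: 0 up, 7 down) and 4 of 11 for breakdown (8: 2 up, 6 down).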

How the data were processed

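Whole-number counts for each gene were deposited by the authors, without normalization. Per the file headers they were made with featureCounts 2.0.1 (paired, strand option 2) on Ensembl release 101, with gene length as an other deposited column. Per the submitters' processing notes the tools included HISAT2 and DESeq2 and the build was GRCh38.p13; alignment settings and the handling of multi-mapping reads were not given in the sources used here, so counts shared with near-identical copies are uncertain. Of 60671 genes, 60401 were given a symbol by identifier. Groups and replicate numbers came from the sample titles. Replicates differed by more than sampling noise (chi-square per degree of freedom 6.21 to 17), so none was merged.

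Counts were tested with edgeR 4.0.16 in R 4.3.3 (quasi-likelihood, robust, TMM factors 0.974 to 1.03) on 19316 genes kept by filterByExpr (minimum count 10, minimum total 15), with 8 group means over 16 libraries and 8 residual degrees of freedom. The threshold was an adjusted p of 0.05 (Benjamini-Hochberg, over all genes tested). The SE was taken as |log2 fold change| over the root of F. The 95% intervals built on it use the normal quantile, so they are approximate and somewhat narrow. Of the 44 collagens 36 were tested. The replicate comparison used the 14 transfected libraries, 19103 genes and 6 residual degrees of freedom. The pairing of replicate numbers was read from the data (r from 0.162 to 0.441, median 0.248, in 28 pairs of groups), not from the labels. The scripts were tested on simulated data. A floor of 3 counts marks what a count of 0 allows and covers counting error only.

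Named were all collagens that passed against parental cells or between replicate numbers, the 8 of highest level per kb, the 2 of lowest p in each isoform comparison, and up to 4 passing partner genes in each direction per list, with LAMA1 beyond these, named after its values were seen. Promoters were found in RefSeq for 32 of 44 collagens. Members, lists and tests were chosen with earlier results of these data known. Alternatives were DESeq2 1.42.0, its size factors, no low-count filter, a replicate block, other sets of libraries and each library left out. No unassigned column was present (0).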

Additional observations from a re-analysis of the deposited data

How the results depend on the processing

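With the replicate number as a block in the paired fit, 21 collagens passed for empty vector against parental in place of 11. For all transfected groups 24 passed in place of 17. The common dispersion fell from 0.0184 to 0.00436 with the block, and its part in these counts was not tested. Isoform counts stayed at 0 with the block. Without the low-count filter 17 passed for empty vector and 18 for all transfected groups, and DESeq2 called 14 and 16. Leaving out 1 library in turn gave 5 to 11 collagens for empty vector, 10 to 18 for all transfected groups, 20 to 23 for replicate 2 against replicate 1 and 0 for the isoform comparisons. The count of silent collagens was 2. It was 0 under 0.05 CPM, 8 under 0.5 CPM, 9 under 0.1 CPM per kb, and 0 to 3 with 1 library left out, with 0 without T2 replicate 1, since these genes rest on counts of 0 to 3 a library. Over all genes tested, 3092 passed for empty vector, 6626 with the block and 1365 to 1551 with 1 library left out. For all transfected groups 5744 passed, 8826 with the block, 2498 without parental replicate 1 and 3215 without parental replicate 2. No collagen that passed against parental cells or between replicate numbers changed sign under any alternative that was run (0 of each). Differences near 0 that did not pass did turn with the block: COL4A1 over all transfected groups (-0.00 to 0.00) and COL7A1 in CU2 (-0.03 to 0.01) are examples. Beyond the block, the cause of these shifts was not tested. With 2 libraries a group, calls rest on a spread shared over groups.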
